A study of Cucumis melo with 24 samples.

Results

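The genes described here are the NAC-domain transcription factors of melon (Cucumis melo) other than CmNAC-NOR, followed through fruit flesh of wild type (WT) and of the cmnac-nor mutant. Members are all genes whose description in the deposited table carries the word NAC, or NAC followed by digits, leaving out the nascent polypeptide proteins and CmNAC-NOR itself (MELO3C016540.2). The table describes 76 such genes, and the 52 that reached 1 TPM (a measure of how abundant the transcripts of a gene are within a library) in at least 3 of 24 libraries were tested, among 17658 genes tested in all. Flesh was collected at 15, 25, 35 and 45 days after pollination (DAP) from each genotype, with 3 libraries in each of the 8 groups. WT has no further label, and the labels name the mutant only as cmnac-nor, without its lesion, its genetic background or how it was made. The labels do not state whether replicate libraries stem from different fruits or plants; p-values therefore measure the spread between these samples only, and that spread may be technical.

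NAC proteins are plant transcription factors that share a DNA-binding domain at the N-terminal end, while the C-terminal end differs between members and carries the activating or repressing activity. Some are held in membranes by a segment near the C-terminus and reach the nucleus only after release. In Arabidopsis, members control leaf senescence, responses to drought and abscisic acid, the differentiation of xylem vessels and sieve elements, and answers to stress of the mitochondrion and the endoplasmic reticulum. In tomato the relative of CmNAC-NOR, known as NOR, is a regulator of fruit ripening, and other NAC genes act beside it there. The roles given below are those of the Arabidopsis gene with the same number, unless another species is named. A number in a melon description comes from sequence likeness, and its function in melon was not tested here. Below, NAC55 stands for a gene described as NAC domain-containing protein 55, and so on for the other numbers.

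The values of the table of all 24 libraries were read as TPM, from their decimals and sums, since neither the table nor the labels name the unit. Read depth is unknown, so no counting interval can be given. Libraries summed to between 927159 and 963192 TPM, and libraries of the same group correlated at r between 0.913 and 0.98 over genes. In such bulk samples, fewer cells of a type and less RNA per cell cannot be told apart. CmNAC-NOR stood at 729, 1027 and 575 TPM in the WT libraries and at 24.6, 101.5 and 320 TPM in the mutant libraries at 15 DAP. Its values at 25 DAP were 1392, 1396 and 1463 TPM in WT and 505, 482 and 642 TPM in the mutant. By 45 DAP they were 511, 430 and 432 TPM in WT and 1808, 1857 and 1920 TPM in the mutant. CmNAC-NOR mRNA was thus lower in the mutant at the 2 early ages and higher at 45 DAP, without overlap, while at 35 DAP the ranges of the genotypes overlapped. Since the lesion is not given, the mRNA level does not check the labels.

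The tested members spanned a wide range of levels. Averaged over the 24 libraries, 6 lay at or under 1 TPM, 17 between 1 and 10 TPM, 23 between 10 and 100 TPM and 6 above 100 TPM. The highest were NAC55 (MELO3C016536.2; 13.5 to 1825 TPM), a gene with no number (MELO3C017754.2; 60.8 to 1109 TPM), NAC62 (MELO3C024865.2; 60.2 to 322 TPM) and a pair with no number (MELO3C013287.2, 0.11 to 786 TPM, and MELO3C010500.2, 9.14 to 504 TPM). Each of these covered more than a 5-fold range over the libraries, so the summed level of the members hides much exchange between them. That sum was 2872 ± 548 TPM (mean ± SD, n = 3) in WT and 1857 ± 707 TPM in the mutant at 15 DAP. It reached 2989 ± 91.4 and 2013 ± 61.0 TPM at 25 DAP, and 2850 ± 289 and 1748 ± 348 TPM at 35 DAP. At the last age the order turned, with 1974 ± 321 TPM in WT and 3750 ± 79.2 TPM in the mutant. The sums lean on a few abundant genes. NAC55 alone had means of 1737 TPM in WT and 337 TPM in the mutant at 25 DAP, and 306 and 1012 TPM at 45 DAP. For MELO3C017754.2 the means at 35 DAP were 886 TPM in WT and 67.7 TPM in the mutant.

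**Figure D1:**
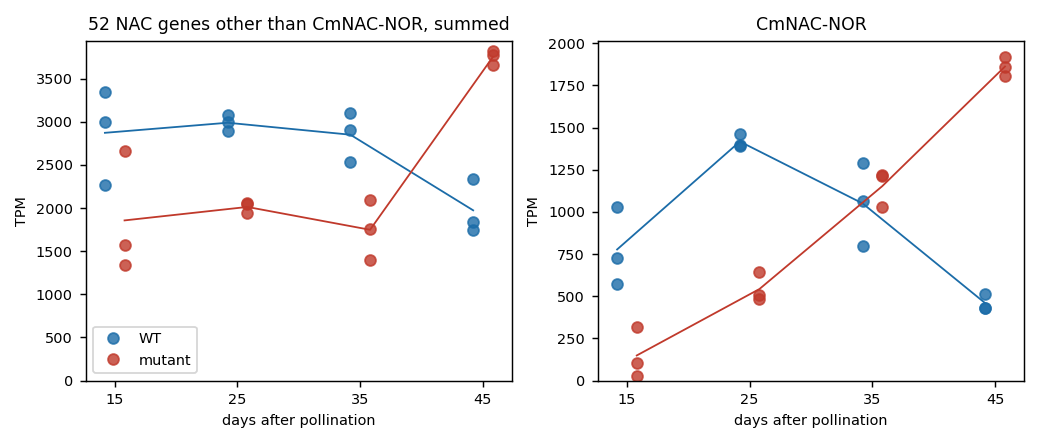
Summed TPM of the 52 tested NAC genes (left) and TPM of CmNAC-NOR (right) in each library against age in days after pollination; each point is 1 library and lines join the means of 3 libraries. The mutant sums lie below the WT sums at 25 and 35 DAP and above them at 45 DAP, and the CmNAC-NOR values turn from lower to higher in the mutant over the same time.

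The number of members with at least 1 TPM also differed between the genotypes. It was 47 to 49 of 52 in WT and 43 to 47 in the mutant at 15 DAP. Later WT libraries held 29 to 31, 29 to 36 and 33 to 34 members in order of age. Mutant libraries held 43 to 48, 41 to 42 and 43 to 44 members at these 3 ages, so from 25 DAP on every mutant library had more members detected than any WT library of its age. The same held over all genes. At 25 DAP 13820 to 14084 genes reached 1 TPM in WT libraries and 15650 to 15823 in mutant libraries. The ranges were 13980 to 14549 against 15365 to 15585 at 35 DAP, and 14164 to 14571 against 15394 to 15508 at 45 DAP.

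At each age the question was which members differ between the genotypes. A member was called where limma gave an adjusted p (Benjamini-Hochberg) below 0.05 over all 17658 genes, and changes are differences of log2(TPM + 1), mutant minus WT, with their standard error (SE). At 15 DAP 3 members were higher in the mutant and 9 lower, while 10.3% of all genes tested were called higher and 7.99% lower (18.3% in all). Called members at 25 DAP numbered 29 higher and 10 lower, against 48.6% and 18.3% of all genes (66.9%). For 35 DAP the counts were 21 higher and 11 lower, against 41.2% and 23.2% (64.4%), and for 45 DAP 23 higher and 8 lower, against 38.5% and 22% (60.5%). As shares of the 52 members, the called ones were 23.1%, 75%, 61.5% and 59.6% in order of age, which is close to the share over all genes at each age.

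The direction of the members' balance depends in part on scaling. At 25, 35 and 45 DAP the median log2 change over all genes was 0.45, 0.27 and 0.22, and the median over the members was 0.66, 0.30 and 0.64. Quantile normalization, which gives all libraries the same distribution of values, moved the median gene to -0.01, -0.03 and -0.08. With it, 17 members were higher and 16 lower at 25 DAP, and for the later ages the counts were 17 and 16, then 17 and 10. Scaling by median ratios gave 23 and 11, 21 and 13, and 21 and 8 over the same ages. No called member changed sign under either scaling except NAC89-like (MELO3C025584.2) at 25 DAP under quantile normalization. The count at 15 DAP rests on few libraries: it was 7 without WT replicate 1, 7 without WT replicate 2 and 6 without mutant replicate 2. Fitted to the 15 DAP groups alone it was 5, all of them lower. The members also varied more than all genes in the 15 DAP mutant libraries, with a median SD of 0.55 on the log2 scale against 0.26. In the later mutant groups the values were 0.317 against 0.173, 0.302 against 0.175 and 0.214 against 0.162. In WT they were 0.236 against 0.214, 0.11 against 0.12, 0.258 against 0.182 and 0.129 against 0.148 in order of age.

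Taken over the 4 ages, 31 members were called higher at 1 or more ages and never lower, 10 lower and never higher, 7 went both ways and 4 were called at no age. Higher at 25, 35 and 45 DAP alike were 13 members, and lower at these ages were 3. Such patterns were not counted over all genes, so these numbers only describe the members. More of all genes, too, were called higher than lower at each age. The libraries of the genotypes did not overlap, in order of age, for 14, 42, 29 and 39 members, against 26.5%, 75.6%, 68.1% and 70.1% of all genes. Of the called members, 4 of 12, 23 of 39, 22 of 32 and 21 of 31 kept their call under every alternative setting and without each library in turn. Where a call described individually below did not hold, the alternatives that ended it are named or counted. For NAC82 at 25 DAP and NAC89-like at 45 DAP the alternatives are not given. The tested members NAC92 and NAC105-like reached 1 TPM in WT libraries alone and so passed the filter only through the genotype where they are high. Both are among the lower calls at 35 and 45 DAP, and these calls are given no weight, although the counts and shares above and below include them. Among WT libraries, MELO3C019663.2 reached 1 TPM only in 15 DAP replicate 3 and MELO3C000247.2 only in 15 DAP replicate 1. These genes needed mutant libraries to pass the filter, and their higher calls are likewise given no weight, although they too are counted.

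**Figure D2:**
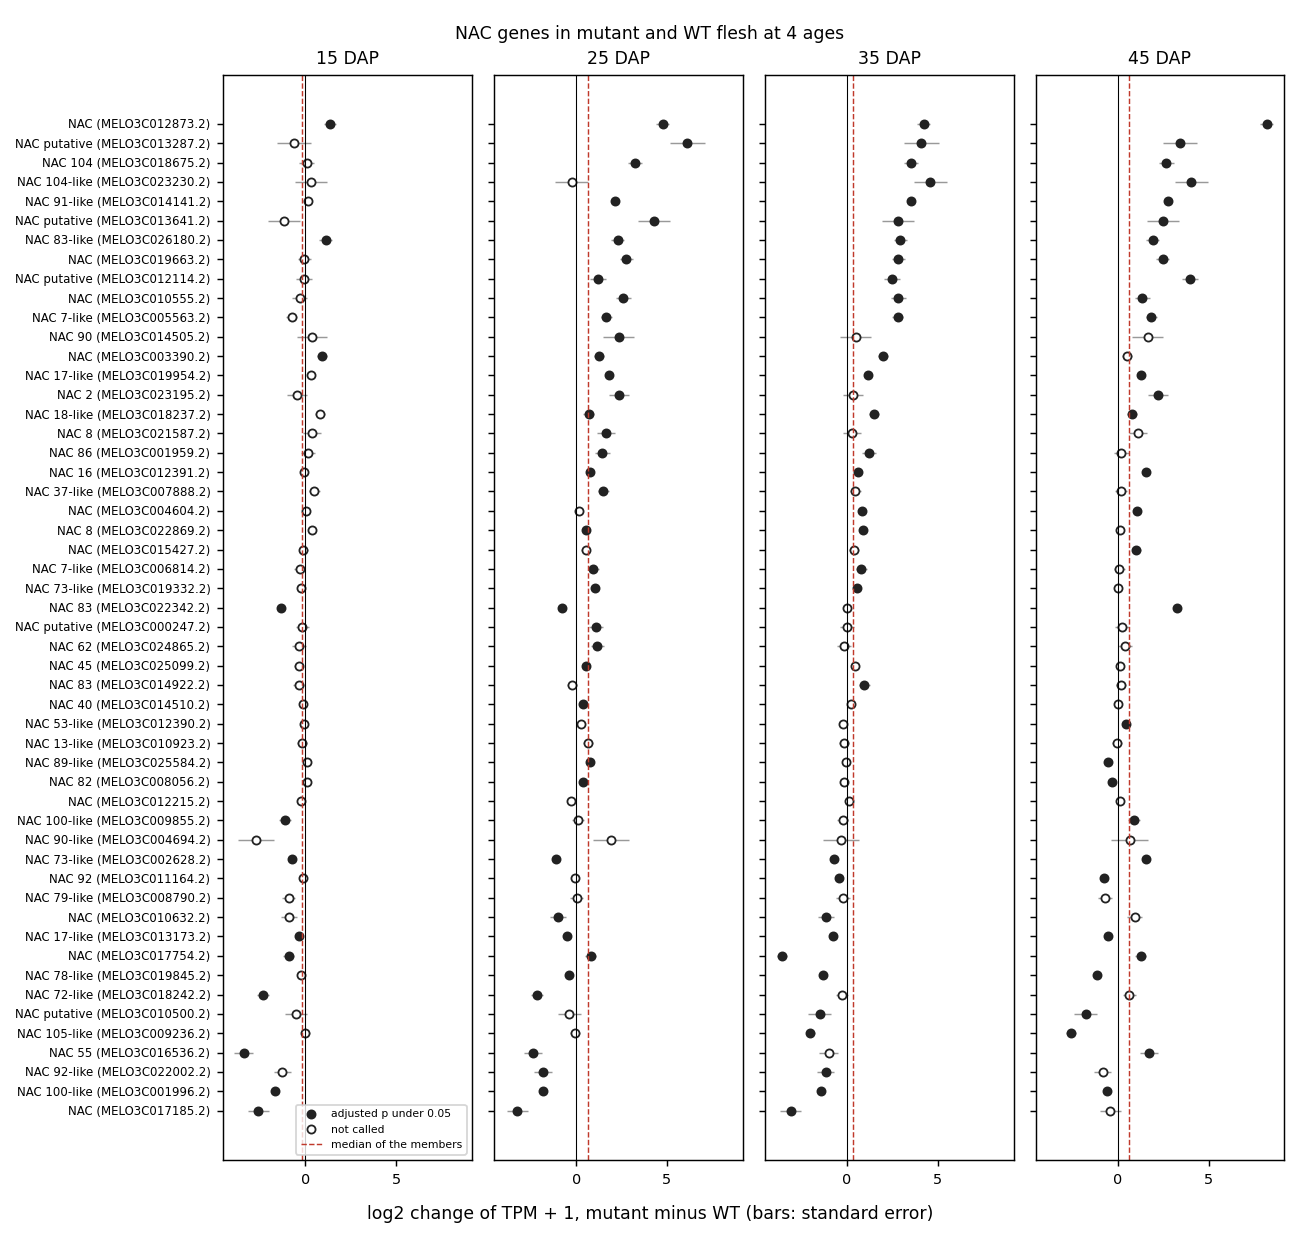
Difference between mutant and WT of each of the 52 tested NAC genes (rows, ordered by their mean difference over the ages) at 15, 25, 35 and 45 days after pollination, as a difference of log2(TPM + 1) on the horizontal axis with bars for the standard error and a dashed line at the median of the members. Filled points passed the adjusted p threshold of 0.05; points to the right of 0 are higher in the mutant, and the differences span -3.41 to 1.36 at 15 DAP and -2.60 to 8.21 at 45 DAP.

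Genes numbered like the Arabidopsis factors of drought, abscisic acid and jasmonate responses were NAC55, NAC72-like (RD26 in Arabidopsis) and NAC2 (ATAF1 in Arabidopsis). In order of age, 0, 1, 0 and 2 of these 3 were higher in the mutant (all genes: 10.3%, 48.6%, 41.2% and 38.5%). Of the same 3, 2, 2, 0 and 0 were lower (all genes: 7.99%, 18.3%, 23.2% and 22%). NAC55, the most abundant member, read 461, 562 and 327 TPM in the WT libraries at 15 DAP and 13.5, 50.9 and 93.8 TPM in the mutant libraries. At 25 DAP it read 1825, 1731 and 1656 TPM in WT and 306, 287 and 419 TPM in the mutant. The mutant libraries were far below WT at these ages, with no overlap. The difference was -3.41 (SE 0.51, adjusted p = 0.000127) and then -2.38 (SE 0.51, adjusted p = 0.000444).

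By 35 DAP NAC55 had values of 725, 434 and 720 TPM in WT and 571, 141 and 334 TPM in the mutant, which overlapped, and it was not called. The order had turned at 45 DAP, with 316, 357 and 243 TPM in WT and 953, 1258 and 825 TPM in the mutant. All mutant libraries were then above all WT libraries, and the difference was 1.72 (SE 0.51, adjusted p = 0.00693). Its early call, at 15 DAP, did not hold when the 15 DAP groups were fitted alone (adjusted p = 0.0704, range over the alternatives 2.28e-05 to 0.0704).

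NAC72-like (MELO3C018242.2) followed the same order at the early ages. It stood at 20.9, 21.8 and 14.2 TPM in WT and 1.65, 4.92 and 2.61 TPM in the mutant at 15 DAP, and at 24.6, 20.5 and 25.8 TPM against 4.86, 4.97 and 3.46 TPM at 25 DAP. The groups did not overlap, and the differences were -2.35 (SE 0.34, adjusted p = 8.19e-05) and -2.19 (SE 0.34, adjusted p = 1.41e-05). At 45 DAP it read 24.9 to 27.9 TPM in WT and 37.3 to 46.4 TPM in the mutant, which did not pass the test (0.64, SE 0.34, adjusted p = 0.111).

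NAC2 (MELO3C023195.2) went the other way at 25 DAP. Its values were 10.5, 15.2 and 10.7 TPM in WT and 83.1, 103 and 32.6 TPM in the mutant. At 45 DAP they were 28.2, 22.4 and 21.96 TPM in WT and 82.6, 115 and 166 TPM in the mutant. Every mutant library was above every WT library at both ages, with differences of 2.36 (SE 0.55, adjusted p = 0.000948) and 2.23 (SE 0.55, adjusted p = 0.00176). Mutant libraries at 35 DAP were spread from 8.13 to 45.8 TPM and overlapped WT.

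**Figure D3:**
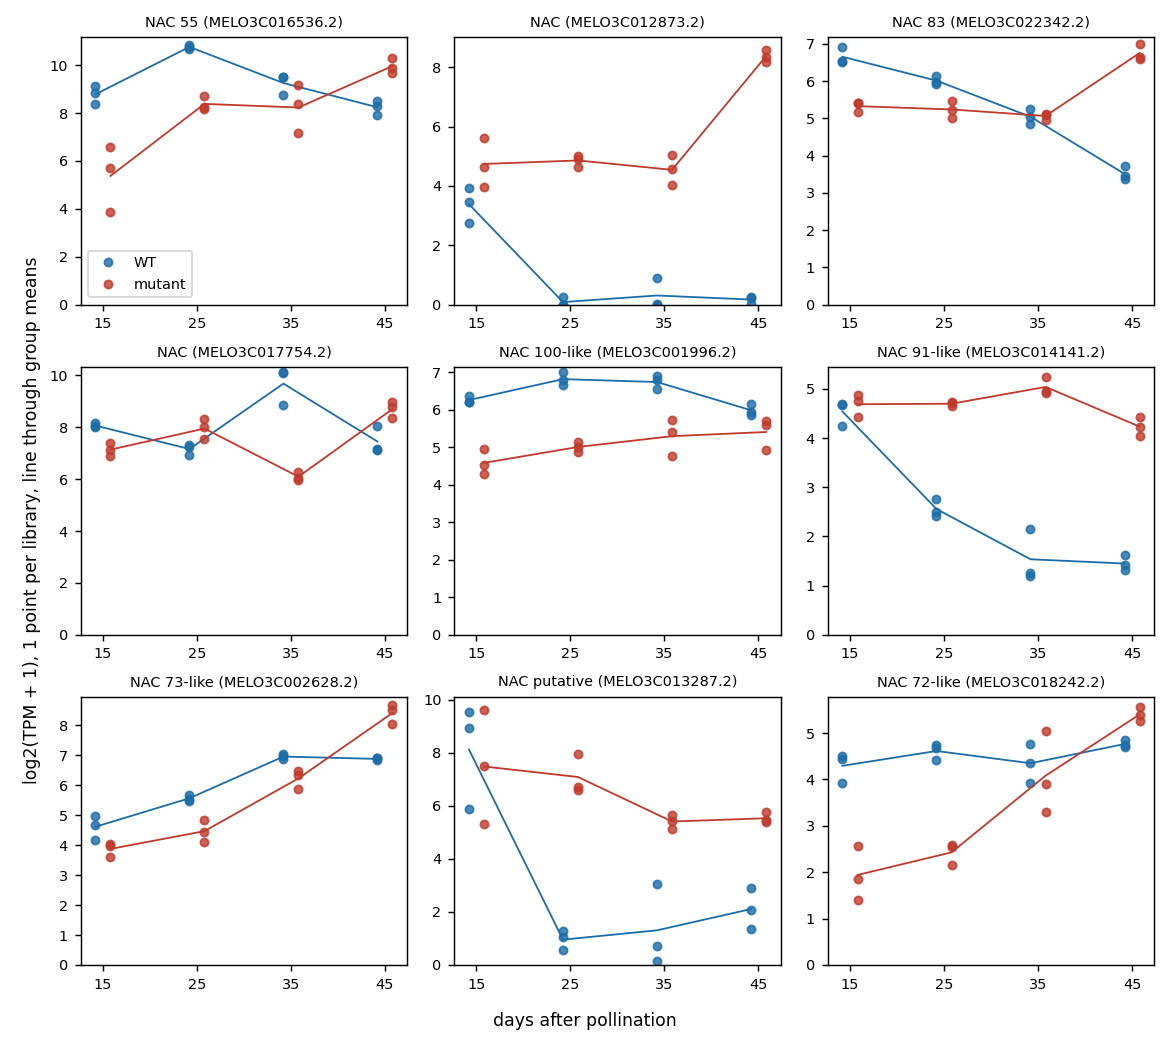
Log2(TPM + 1) of 9 NAC genes, chosen after their values were seen, in each library against age in days after pollination; each point is 1 library, WT and mutant are set slightly apart along the age axis, lines join the means of 3 libraries, and each panel has its own vertical scale from 0. In the mutant NAC55 goes from 13.5 to 93.8 TPM at 15 DAP up to 825 to 1258 TPM at 45 DAP, and MELO3C012873.2 stands at 290 to 387 TPM in the mutant at 45 DAP.

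Genes numbered like the Arabidopsis factors of senescence, and their relatives, made a list of 10 tested members. In order of age, 1, 3, 4 and 5 of the 10 were higher in the mutant (all genes: 10.3%, 48.6%, 41.2% and 38.5%). Of the same 10, 3, 3, 3 and 2 were lower (all genes: 7.99%, 18.3%, 23.2% and 22%). A NAC100-like gene (MELO3C001996.2), whose Arabidopsis namesake is a microRNA target, was called lower at all 4 ages. It read 72.02, 81.2 and 73.1 TPM in WT against 18.5, 21.9 and 29.6 TPM in the mutant at 15 DAP. At 25 DAP it read 99.6, 127 and 109 TPM against 34.1, 28.3 and 31.1 TPM. At 35 DAP the values were 117, 92.4 and 109 TPM against 51.9, 25.98 and 41.1 TPM.

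All mutant libraries were below all WT libraries at each age, 45 DAP included, where WT held 60.4, 69.9 and 57.2 TPM and the mutant 29.6, 50.8 and 46.9 TPM. The differences were -1.67 (SE 0.22, adjusted p = 3.19e-05), -1.81 (adjusted p = 7.5e-07), -1.44 (adjusted p = 1.14e-05) and -0.58 (adjusted p = 0.028) in order of age, with 1 SE for all. The call at 45 DAP ended without WT replicate 2 (adjusted p = 0.0972), without mutant replicate 1 (adjusted p = 0.19) and in the fit to the 45 DAP groups alone (adjusted p = 0.0628), over a range of 0.0119 to 0.19. A second NAC100-like gene (MELO3C009855.2), at 0.48 to 6.52 TPM, was lower in the mutant at 15 DAP (-1.13, SE 0.33, adjusted p = 0.0209) and higher at 45 DAP (0.87, SE 0.33, adjusted p = 0.027). These calls did not hold in 5 of 13 alternatives (adjusted p 0.000853 to 0.233) and 7 of 13 alternatives (0.002 to 0.791).

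NAC83 (MELO3C022342.2) is numbered like VNI2, a factor that restrains both vessel formation and leaf senescence in Arabidopsis. Its WT level went down with age, from 119, 90.9 and 91.7 TPM at 15 DAP to 12.1, 9.85 and 9.42 TPM at 45 DAP, with 59.3 to 69.5 and 27.7 to 37.1 TPM at the ages between. Mutant libraries held 35.0, 41.5 and 41.4 TPM at 15 DAP, 30.1 to 43.4 TPM over the middle ages and 100.1, 95.5 and 128 TPM at 45 DAP. Mutant libraries were therefore lower at 15 DAP (-1.33, SE 0.15, adjusted p = 4.72e-06) and 25 DAP (-0.77, adjusted p = 0.000124), overlapping with WT and not called at 35 DAP, and about 10-fold above WT at 45 DAP (3.24, SE 0.15, adjusted p = 1.55e-12). NAC83-like (MELO3C026180.2) was higher in the mutant at all 4 ages; it was listed at 0 in all WT libraries at 25 DAP and stood at 5.50, 6.07 and 1.5 TPM in the mutant. The first of these calls, at 15 DAP where the groups overlap, did not hold in 6 of 14 alternatives (adjusted p 0.00133 to 0.239), among them those without WT replicate 1 or 2 and without mutant replicate 1 or 2.

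NAC16 (MELO3C012391.2), which promotes leaf senescence in Arabidopsis, overlapped between the genotypes only at 15 DAP. There it read 109 to 113 TPM in WT and 95.3 to 109 TPM in the mutant. The mutant was higher at 25 DAP (47.01, 46.4 and 47.8 TPM against 78.5, 70.8 and 88.1 TPM; 0.73, SE 0.12, adjusted p = 2.48e-05). The gap was widest at 45 DAP, with 62.6, 54.4 and 52.9 TPM in WT and 197, 136 and 183 TPM in the mutant (1.57, SE 0.12, adjusted p = 1.66e-09). NAC18-like (MELO3C018237.2) was also higher in the mutant at 25, 35 and 45 DAP, at 65.4 to 137 TPM against 37.5 to 62.2 TPM, although its calls at 25 and 45 DAP ended under both scalings and in 9 and 4 of 14 alternatives (adjusted p 0.000411 to 0.351 and 0.00158 to 0.0787).

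NAC92-like and NAC92 are numbered like ORE1, a promoter of leaf senescence. NAC92-like (MELO3C022002.2) read 15.2, 7.38 and 12.4 TPM in WT and 2.16, 1.31 and 4.47 TPM in the mutant at 25 DAP, lower without overlap (-1.84, SE 0.47, adjusted p = 0.00221). Its call at 35 DAP, also lower, did not hold in 5 of 14 alternatives (adjusted p 0.00488 to 0.238). NAC92 (MELO3C011164.2) was scarce and reached 1 TPM in 3 libraries, all of them WT at 45 DAP, where it read 1.76, 1.05 and 1.02 TPM in WT and 0.28, 0.45 and 0.30 TPM in the mutant. It passed the filter only through that group, so these values are a description. NAC79-like (MELO3C008790.2; 0.56 to 6.65 TPM) was called at no age, and NAC83 isoform X2 (MELO3C014922.2; 1.57 to 9.58 TPM) was higher in the mutant at 35 DAP, a call that ended under quantile normalization (adjusted p = 0.601, range 0.00482 to 0.601).

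Factors of the xylem and the secondary wall formed the next group. In Arabidopsis NAC7, NAC37 and NAC105 are VND genes, which switch on vessel differentiation, NAC73 is SND2, which acts on secondary wall genes, and NAC104 is XND1, which restrains xylem differentiation. In order of age, 0, 5, 5 and 4 of the 8 tested were higher in the mutant (all genes: 10.3%, 48.6%, 41.2% and 38.5%). Of the same 8, 1, 1, 2 and 1 were lower (all genes: 7.99%, 18.3%, 23.2% and 22%). NAC104 (MELO3C018675.2) was listed at 0 in every WT library from 25 DAP on, after 4.08, 5.54 and 6.78 TPM at 15 DAP. The mutant kept 8.41, 5.09 and 13.5 TPM at 25 DAP, 5.63, 20.5 and 9.75 TPM at 35 DAP and 5.92, 4.44 and 5.90 TPM at 45 DAP. It was called higher in the mutant at these ages (adjusted p = 8.85e-07, 2.73e-07 and 1.03e-05), and no fold is given against a group listed at 0.

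A NAC7-like gene (MELO3C005563.2) had the same pattern at lower levels. WT libraries were at 4.16 to 4.93 TPM at 15 DAP, 0.03 to 0.08 TPM at 25 DAP and 0 at 35 and 45 DAP, while the mutant held 0.84 to 3.61, 4.45 to 7.14 and 1.76 to 3.75 TPM at 25, 35 and 45 DAP. It was called higher at these 3 ages (adjusted p = 8.93e-05, 1.89e-07 and 3.38e-05). Under 5 TPM in every library were also the second NAC7-like gene (MELO3C006814.2), NAC37-like (MELO3C007888.2) and the second NAC73-like gene (MELO3C019332.2). All 3 were listed at 0 in every WT library at 25 and 35 DAP, and all 3 were called higher in the mutant at 25 DAP. The call of MELO3C006814.2 there ended without mutant replicate 3 (adjusted p = 0.126) and in the fit to those groups alone (0.0761), over a range of 0.000514 to 0.126.

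NAC104-like (MELO3C023230.2) varied strongly between replicates, with 12.3, 42.5 and 5.90 TPM in WT at 15 DAP. At 35 DAP the values were 2.24, 17.5 and 0.20 TPM in WT and 103, 130 and 73.3 TPM in the mutant. At 45 DAP they were 1.72, 1.30 and 1.25 TPM in WT and 15.9, 81.9 and 45.4 TPM in the mutant. Every mutant library was above every WT library at both ages, and the differences were 4.59 (SE 0.89, adjusted p = 0.000173) and 4.06 (SE 0.89, adjusted p = 0.000643).

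NAC73-like (MELO3C002628.2) and NAC105-like (MELO3C009236.2) departed from the others of the group. NAC73-like was the most abundant of the group and was lower in the mutant at 15, 25 and 35 DAP, with 49.5, 46.01 and 43.8 TPM in WT and 20.95, 16.2 and 27.8 TPM in the mutant at 25 DAP (-1.10, SE 0.21, adjusted p = 0.000166). At 45 DAP it was higher in the mutant, with 367, 262 and 411 TPM against 118, 119 and 113 TPM in WT (1.54, SE 0.21, adjusted p = 4.67e-06). The 15 DAP call ended without WT replicate 1 (adjusted p = 0.0634), without WT replicate 2 (0.0972), without mutant replicate 1 (0.077) and in the fit to those groups alone (0.185), over a range of 0.00608 to 0.185. NAC105-like was at 0 in all 15 DAP libraries and rose above 1 TPM in WT alone, at 2.83, 1.82 and 5.25 TPM at 35 DAP and 3.47, 4.43 and 10.3 TPM at 45 DAP, while the mutant reached at most 0.13 TPM. It passed the filter through these WT libraries alone, so its values are a description.

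Genes of xylem and the secondary wall outside the NAC family were counted beside this group. Of 21 tested genes described as laccase or fasciclin-like, 2, 15, 10 and 9 were higher in the mutant in order of age, and 1, 1, 1 and 2 were lower. Over all genes 10.3%, 48.6%, 41.2% and 38.5% were called higher, and the counts at 35 and 45 DAP lie near these shares. Their summed level was 96.1 to 108 TPM in WT and 250 to 311 TPM in the mutant at 25 DAP, and 93.2 to 111 TPM against 221 to 276 TPM at 45 DAP; 1 of the 33 described is at 0 in all libraries. Laccases alone summed to 10.9 to 15.0 TPM in WT and 23.2 to 49.7 TPM in the mutant at 25 DAP, and to overlapping ranges at the other ages. Whether the amount of xylem in the flesh sampled has a part in the NAC values was not tested.

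The phloem pair consisted of NAC45 and NAC86, which in Arabidopsis act together in the loss of the nucleus from sieve elements. NAC86 (MELO3C001959.2) stood at 7.50, 5.98 and 6.65 TPM in WT and 12.4, 7.01 and 4.73 TPM in the mutant at 15 DAP. At 25 DAP it was at 0.07, 0 and 0.17 TPM in WT and 3.55, 1.03 and 1.72 TPM in the mutant, which did not overlap (1.44, SE 0.40, adjusted p = 0.00401). NAC45 (MELO3C025099.2) was listed at 0 in all WT libraries from 25 DAP on and at 0.52, 0.25 and 0.67 TPM in the mutant at 25 DAP (adjusted p = 0.0406, a call that did not hold in 8 of 13 alternatives, at 0.00147 to 0.171). Of the pair, 2 were called higher at 25 DAP, 1 at 35 DAP and 0 at 15 and 45 DAP (all genes: 48.6%, 41.2%, 10.3% and 38.5%). The 25 DAP call of NAC86 was lost with quantile normalization (adjusted p = 0.0744, range 0.000606 to 0.0744), and its 35 DAP call did not hold in 4 of 14 alternatives (0.00019 to 0.12), among them the one without mutant replicate 2.

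Phloem markers outside the family were far apart between the genotypes at the same ages. Phloem protein 2, phloem lectin, phloem filament and sieve element occlusion genes (28 described, 25 tested, 1 at 0 in all libraries) summed to 10121 to 19837 TPM in WT and 11539 to 26185 TPM in the mutant at 15 DAP. At 25 DAP the sums were 1844 to 2934 TPM in WT against 5935 to 9135 TPM. They were 181 to 371 TPM against 3845 to 7147 TPM at 35 DAP, and 98.3 to 151 TPM against 7177 to 10600.2 TPM at 45 DAP. Within these sums, the phloem filament and sieve element occlusion genes held 1.1 to 1.3 TPM in WT and 70.4 to 167.7 TPM in the mutant at 25 DAP. At 45 DAP they were lower in the mutant than before, at 5.1 to 10.7 TPM against 1.2 to 1.4 TPM in WT. Of the 25 tested, 2, 18, 19 and 13 were higher in the mutant in order of age (all genes: 10.3%, 48.6%, 41.2% and 38.5%). Among these 25 phloem genes, 1, 1, 2 and 0 were lower (all genes: 7.99%, 18.3%, 23.2% and 22%). Their part in the NAC values was not tested. Genes described as seed storage proteins, oleosins or late embryogenesis abundant proteins (111 described, 52 tested, 33 at 0 in all libraries) also stood apart between the genotypes after 15 DAP. They summed to 6815 to 8105 TPM in WT and 6190 to 8434 TPM in the mutant at 15 DAP, and to 1118 to 1591 TPM against 4446 to 5681 TPM at 25 DAP. At 35 DAP the sums were 1077 to 1650 TPM against 3201 to 4295 TPM, and at 45 DAP 1548 to 1768 TPM against 3491 to 5424 TPM. Of the 52 tested, 4, 22, 13 and 15 were higher in the mutant in order of age, and 4, 9, 16 and 15 were lower (shares of all genes as above). The 40 of them described as storage proteins or oleosins, 25 at 0 in all libraries, summed to 43.2 to 160 TPM over all libraries. These 40 overlapped at 15 DAP and summed to 43.2 to 60.9 TPM in WT and 76.5 to 115.5 TPM in the mutant at 25 DAP. Their order then turned, unlike that of the whole list, with 89.1 to 159.5 TPM in WT against 53.4 to 65.4 TPM at 35 DAP. At 45 DAP their sums were 100.2 to 145.9 TPM in WT against 67.6 to 83.1 TPM in the mutant. The part of these genes in the NAC values was not tested.

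Membrane-bound NAC genes and the relatives of SOG1, the factor that controls the response to DNA damage in Arabidopsis, made up 12 tested members. NAC16, described above with the senescence list, is counted in both lists. In order of age, 0, 8, 4 and 4 of the 12 were higher in the mutant (all genes: 10.3%, 48.6%, 41.2% and 38.5%). Of the 12 members, 1, 2, 2 and 3 were lower (all genes: 7.99%, 18.3%, 23.2% and 22%). Among them, 2 genes described as NAC17-like went opposite ways. NAC17 is a factor of the endoplasmic reticulum membrane that signals mitochondrial stress in Arabidopsis. MELO3C013173.2 was lower in the mutant at each age, at 47.2, 53.5 and 47.7 TPM in WT and 32.97, 33.9 and 36.6 TPM in the mutant at 25 DAP, and at 57.6, 63.1 and 60.6 TPM against 39.7, 30.8 and 34.4 TPM at 35 DAP. The groups did not overlap, with differences of -0.34 (SE 0.10, adjusted p = 0.0187), -0.51 (adjusted p = 0.000154), -0.78 (adjusted p = 1.09e-06) and -0.57 (adjusted p = 5.63e-05) in order of age; the first of these calls ended without WT replicate 2 (adjusted p = 0.085), without mutant replicate 2 (0.0709) or 3 (0.0658) and in the fit to the 15 DAP groups alone (0.191), over a range of 0.00356 to 0.191.

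The other NAC17-like gene, MELO3C019954.2, was at 28.9 to 41.3 TPM in WT and 35.0 to 52.5 TPM in the mutant at 15 DAP. It then read 14.6, 19.1 and 19.5 TPM in WT and 68.3, 68.2 and 58.5 TPM in the mutant at 25 DAP. Mutant libraries were higher without overlap at 25, 35 and 45 DAP, by 1.83 (SE 0.21, adjusted p = 4.31e-07), 1.16 (adjusted p = 8.78e-05) and 1.29 (adjusted p = 3.12e-05). NAC78-like (MELO3C019845.2), numbered like a factor of the response to proteasome stress, was lower in the mutant from 25 DAP on. Its 25 DAP call ended without WT replicate 3 (adjusted p = 0.057) and without mutant replicate 1 (0.0512), over a range of 3.31e-06 to 0.057. At 45 DAP it read 215, 200 and 205 TPM in WT and 92.8, 87.2 and 99.1 TPM in the mutant (-1.15, SE 0.14, adjusted p = 8.67e-07).

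NAC91-like (MELO3C014141.2), whose Arabidopsis namesake was found as a partner of a viral coat protein, went down with age in WT and stood between 15.6 and 36.9 TPM in every mutant library. It read 17.99, 24.9 and 24.6 TPM in WT and 28.6, 25.9 and 20.6 TPM in the mutant at 15 DAP, which overlapped. At 25 DAP it was at 4.65, 5.81 and 4.30 TPM in WT and 25.2, 25.5 and 24.2 TPM in the mutant. At 35 DAP it was at 1.28, 3.45 and 1.40 TPM against 29.3, 36.9 and 30.04 TPM. The groups did not overlap from 25 DAP on, with differences of 2.14 (SE 0.21, adjusted p = 3.99e-08), 3.51 (adjusted p = 4.8e-11) and 2.79 (adjusted p = 1.27e-09).

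Of the remaining genes of this group, NAC62 (MELO3C024865.2), a factor of cold and endoplasmic reticulum stress, stood at 62.2, 88.8 and 76.4 TPM in WT and 169, 175 and 165 TPM in the mutant at 25 DAP (1.17, SE 0.38, adjusted p = 0.0104). It overlapped between genotypes at the other ages. The SOG1 relative NAC8 (MELO3C022869.2) was higher in the mutant at 35 DAP, with 15.5, 20.2 and 17.1 TPM in WT and 28.9, 37.1 and 33.6 TPM in the mutant (0.88, SE 0.16, adjusted p = 6.64e-05); its call at 25 DAP ended under both scalings (adjusted p = 0.808 and 0.289, range 0.00395 to 0.808). NAC53-like (MELO3C012390.2) was higher at 45 DAP by 0.45 (SE 0.11, adjusted p = 0.00211), NAC40 (MELO3C014510.2) was called at 25 DAP in a call that ended under both scalings (0.402 and 0.597, range 0.00343 to 0.597), and NAC13-like (MELO3C010923.2; 24.8 to 74.1 TPM) was called at no age. NAC89-like (MELO3C025584.2) and NAC8 isoform X1 (MELO3C021587.2) stayed at or under 5.32 TPM, and neither was called at 25 DAP once quantile normalization was used (adjusted p = 0.584 and 0.079). Higher in the mutant at 25 DAP in the main fit, NAC89-like was called lower at 45 DAP. It then read 3.68, 2.53 and 1.63 TPM in WT and 1.16, 1.33 and 1.66 TPM in the mutant, which overlapped.

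**Figure D4:**
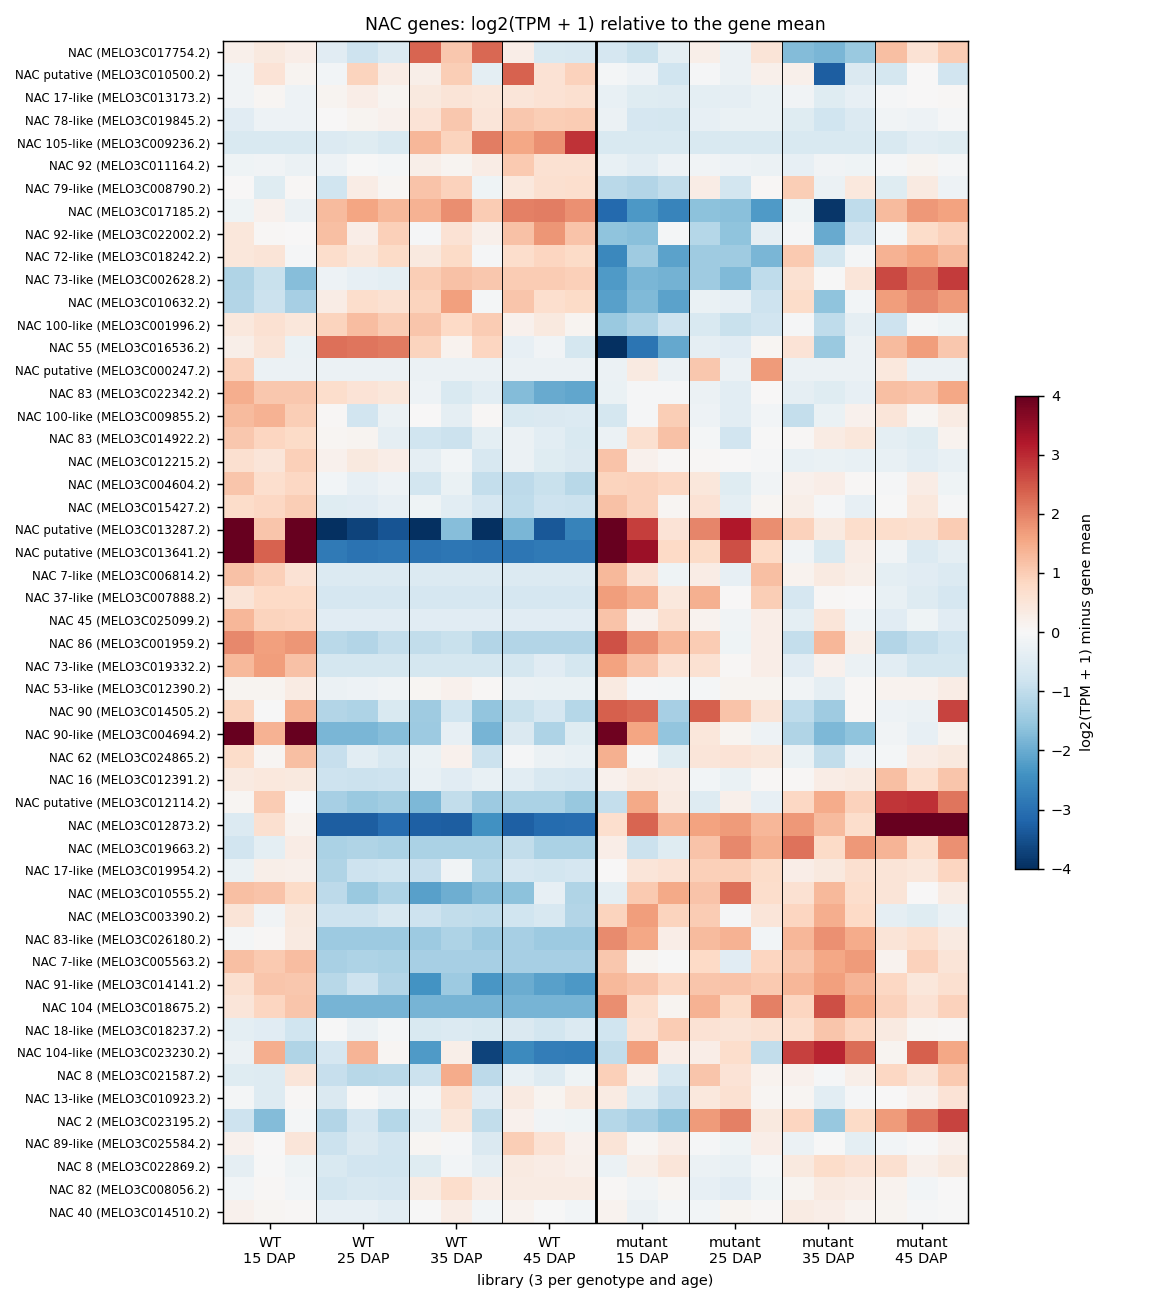
Log2(TPM + 1) of the 52 tested NAC genes (rows) in each of 24 libraries (columns, 3 per genotype and age, WT left and mutant right), relative to the mean of the gene over all libraries; red is above and blue below that mean, colours saturate at 4 on either side, and rows are ordered by average-linkage clustering of these values scaled by their SD. The row of MELO3C012873.2 is blue in the WT libraries from 25 DAP on and darkest red in the 3 mutant libraries of 45 DAP, and the row of NAC104 is blue in the same WT libraries.

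Described without a number were 15 tested members, among them the largest differences. In order of age, 2, 9, 8 and 9 of these 15 were higher in the mutant (all genes: 10.3%, 48.6%, 41.2% and 38.5%). Of the same 15, 2, 2, 4 and 1 were lower (all genes: 7.99%, 18.3%, 23.2% and 22%). MELO3C012873.2 had 5.80, 14.4 and 9.90 TPM in WT and 14.6, 48.6 and 23.7 TPM in the mutant at 15 DAP. In WT it then stayed at or under 0.85 TPM in all libraries. The mutant held 29.3, 31.2 and 24.1 TPM at 25 DAP, 31.8, 22.8 and 15.3 TPM at 35 DAP and 323, 290 and 387 TPM at 45 DAP. The groups were apart at every age, and the difference at 45 DAP, 8.21 (SE 0.36, adjusted p = 1.02e-12), was the largest of all members and ages. Its size ranged from 6.03 to 10.6 over the alternatives, with WT at 0.02 to 0.19 TPM at that age. The call at 15 DAP (1.36, SE 0.36, adjusted p = 0.0122) ended with a pseudocount of 0.1 (adjusted p = 0.158), without WT replicate 1 (0.073), without mutant replicate 2 (0.085) and in the fit to those groups alone (0.223), over a range of 0.00213 to 0.223.

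MELO3C017754.2, the second most abundant member, changed direction at each age. Its values were 255, 287 and 261 TPM in WT and 138, 119 and 168 TPM in the mutant at 15 DAP. At 25 DAP they were 159, 122 and 149 TPM against 256, 186 and 315 TPM, and at 35 DAP 1109, 461 and 1088 TPM against 65.4, 60.8 and 77.0 TPM. At 45 DAP they were 264, 142 and 140 TPM against 506, 325 and 440 TPM. The genotypes did not overlap at any age, and the mutant was lower, higher, lower and higher in turn, by -0.93 (SE 0.30, adjusted p = 0.0354), 0.79 (adjusted p = 0.025), -3.59 (adjusted p = 4.73e-09) and 1.25 (adjusted p = 0.00122). The calls at 15 and 25 DAP did not hold in 5 of 14 alternatives each (adjusted p 0.0119 to 0.129 and 0.007 to 0.213). For 15 DAP these were the fits without any 1 WT library and without mutant replicate 1 or 2, and for 25 DAP both scalings and the fits without WT replicate 2 and mutant replicate 1 or 3.

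MELO3C017185.2 was low in the mutant until 35 DAP. It read 50.5, 63.1 and 51.7 TPM in WT and 5.82, 5.68 and 3.44 TPM in the mutant at 25 DAP, and 55.5, 75.9 and 42.3 TPM against 18.03, 0.43 and 9.64 TPM at 35 DAP. The mutant was lower without overlap at 15, 25 and 35 DAP, by -2.60 (SE 0.57, adjusted p = 0.00375), -3.25 (adjusted p = 5.97e-05) and -3.11 (adjusted p = 9.58e-05). At 45 DAP it stood at 85.8, 86.4 and 74.4 TPM in WT and 50.1, 69.6 and 64.4 TPM in the mutant, and was not called (-0.43, SE 0.57, adjusted p = 0.54).

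The pair MELO3C013287.2 and MELO3C013641.2 ran together, at r = 0.94 over the 24 libraries on the log2(TPM + 1) scale. MELO3C013287.2 read 492, 57.4 and 750 TPM in WT and 786, 182 and 38.7 TPM in the mutant at 15 DAP, so libraries of a group were more than 10-fold apart. At 25 DAP it was at 0.46, 1.05 and 1.43 TPM in WT and 103, 246 and 96.8 TPM in the mutant. MELO3C013641.2 had 320, 39.0 and 429 TPM against 401, 83.8 and 12.7 TPM at 15 DAP, and 0.10, 0 and 0.06 TPM against 12.2, 45.4 and 12.6 TPM at 25 DAP. Both overlapped at 15 DAP and were apart from 25 DAP on, where the differences were 6.13 (SE 0.95, adjusted p = 1.46e-05) and 4.27 (SE 0.89, adjusted p = 0.000333). The later calls of MELO3C013641.2 were less stable: the 35 DAP call ended with a pseudocount of 5 (adjusted p = 0.235), and the 45 DAP call with that pseudocount (0.314), under quantile normalization (0.0823) and without mutant replicate 1 (0.0559). Whether reads of these genes can be assigned to the wrong copy was not tested, since no sequence of the members was at hand.

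Among the other members with no number, MELO3C010555.2 was higher in the mutant from 25 DAP on (at 45 DAP not under quantile normalization or without WT replicate 1), with 6.96, 4.80 and 5.98 TPM in WT and 34.8, 74.3 and 25.5 TPM in the mutant at 25 DAP (2.60, SE 0.42, adjusted p = 2.42e-05). MELO3C012114.2 stood at 0.84, 0.85 and 0.56 TPM in WT and 31.3, 32.8 and 18.7 TPM in the mutant at 45 DAP (3.99, SE 0.44, adjusted p = 2.25e-07). MELO3C010500.2 was lower in the mutant at 45 DAP, with 504, 148 and 188 TPM in WT and 60.2, 99.3 and 57.5 TPM in the mutant (-1.77, SE 0.63, adjusted p = 0.021). These 3 did not overlap at those ages. The last call ended without WT replicate 1 (adjusted p = 0.124), without mutant replicate 1 (0.0595) and without mutant replicate 3 (0.0638), over a range of 0.0107 to 0.124.

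MELO3C010632.2 was lower in the mutant at 25 DAP, with 45.0, 59.04 and 55.3 TPM in WT and 29.95, 28.8 and 19.97 TPM in the mutant (-1.002, SE 0.43, adjusted p = 0.0451), a call that did not hold in 8 of 14 alternatives, among them the fits without any 1 of these 6 libraries (adjusted p over the alternatives 0.00457 to 0.144). MELO3C019663.2 was at or under 0.23 TPM in every WT library from 25 DAP on and at 2.94 to 9.85 TPM in the mutant, and it was called higher at these 3 ages. This gene and MELO3C000247.2 passed the filter only with mutant libraries, so their values are a description. MELO3C003390.2, MELO3C004604.2, MELO3C015427.2 and MELO3C000247.2 stayed under 7 TPM, and each was called higher at 1 or more ages and lower at none. The calls of MELO3C003390.2 at 15 and 25 DAP did not hold in 4 and 1 of 13 alternatives (adjusted p 0.016 to 0.17 and 8.93e-05 to 0.319). Those of MELO3C004604.2 at 35 and 45 DAP ended under quantile normalization (adjusted p = 0.807, range 0.00057 to 0.807, and 0.215, range 7.39e-05 to 0.215). For MELO3C000247.2 and MELO3C015427.2 the only call did not hold in 3 and 1 of 13 alternatives (adjusted p 0.000155 to 0.112 and 0.000101 to 0.133). MELO3C012215.2 (12.5 to 45.6 TPM) was called at no age. Of the 3 numbered members outside the lists, NAC82 (MELO3C008056.2), a factor of ribosomal stress in Arabidopsis, was at 82.9 to 83.4 TPM in WT and 61.5 to 72.4 TPM in the mutant at 45 DAP (-0.31, SE 0.11, adjusted p = 0.0164), a call that ended without mutant replicate 2 (adjusted p = 0.0759, range over the alternatives 0.000706 to 0.0759). NAC90 (MELO3C014505.2) was called at 25 DAP in a call that did not hold in 4 of 14 alternatives (adjusted p 0.00821 to 0.127), and NAC90-like (MELO3C004694.2) at no age.

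Steps between neighbouring ages asked when members change within a genotype. In WT from 15 to 25 DAP, 7 members rose and 31 fell, against 18.5% and 44.8% of all genes (63.4% called). The median step was -0.94 over the members and -0.36 over all genes. From 25 to 35 DAP, 10 rose and 4 fell (24.8% and 14.1% of all genes, 38.9% called), and from 35 to 45 DAP 3 rose and 4 fell (7.2% and 8.77%, 16% called). With quantile normalization the first WT step gave 9 and 22; with median ratios the second gave 6 and 6. The third count was 4 without WT replicate 1 of 35 DAP, 4 without WT replicate 1 of 45 DAP and 4 in the fit to these groups alone. NAC45 reached 1 TPM only in 15 DAP libraries, so its fall in the first WT step is counted but given no weight. Counts of steps and step differences also include calls of NAC92, NAC105-like, MELO3C019663.2 and MELO3C000247.2, which are given no weight here either.

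The first WT step held the steepest falls of the family. MELO3C013641.2 fell by 7.39 (SE 0.89, adjusted p = 8.16e-07), MELO3C013287.2 fell by 7.17 (SE 0.95, adjusted p = 2.69e-06) and NAC90-like fell by 5.80 (SE 0.999, adjusted p = 5.51e-05). NAC55 rose by 1.98 (SE 0.51, adjusted p = 0.00235), MELO3C010632.2 by 1.65 (SE 0.43, adjusted p = 0.00236) and MELO3C017185.2 by 1.47 (SE 0.57, adjusted p = 0.0313). The last of these calls ended in 6 of 14 alternatives, without WT replicate 1 or 3 of 15 DAP, without any 1 of the 3 WT libraries of 25 DAP, and with a pseudocount of 0.1 (adjusted p over the alternatives 0.0005 to 0.0958). Later in WT, MELO3C017754.2 rose by 2.52 (SE 0.30, adjusted p = 2.67e-06) from 25 to 35 DAP and fell by 2.24 (adjusted p = 4.68e-05) from 35 to 45 DAP; the fall was not called in the fit to these groups alone (adjusted p = 0.0575, range 1.37e-06 to 0.0575). NAC83 fell at each WT step, by 0.64 (SE 0.15, adjusted p = 0.00082), 0.97 (adjusted p = 3.8e-05) and 1.53 (adjusted p = 1.23e-06), the first of which was not called under median-ratio scaling.

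Mutant steps had fewer changes early and more late, over the members and over all genes alike. In order of age, 17.3%, 21.2% and 38.5% of the members were called, against 19.1%, 20.5% and 29.2% of all genes. From 15 to 25 DAP 4 members rose and 5 fell (10.9% and 8.12% of all genes, 19.1% called), from 25 to 35 DAP 8 rose and 3 fell (10.8% and 9.75%, 20.5% called), and from 35 to 45 DAP 15 rose and 5 fell (13.1% and 16.2%, 29.2% called). The first count was 2 in the fit to these groups alone, and it was 6 in its lowest leave-one-out fit, without mutant replicate 2 of 25 DAP. The second count was 7 without mutant replicate 1 of 25 DAP, 7 without mutant replicate 2 of 35 DAP and 6 without mutant replicate 3 of 35 DAP. The third was 12 without mutant replicate 2 of 35 DAP and 13 without mutant replicate 3 of 45 DAP. That 35 DAP library read below the other mutant libraries of its age for NAC55, NAC72-like, NAC2, MELO3C017185.2 and MELO3C010500.2.

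From 35 to 45 DAP in the mutant, MELO3C012873.2 rose by 3.83 (SE 0.36, adjusted p = 2.45e-07), MELO3C017185.2 by 3.22 (SE 0.57, adjusted p = 0.000329) and MELO3C017754.2 by 2.61 (SE 0.30, adjusted p = 3.02e-06). NAC91-like fell by 0.81 (SE 0.21, adjusted p = 0.00646). The call of MELO3C017185.2 ended in the fit to these groups alone (adjusted p = 0.0681, range 2.08e-05 to 0.0681). In the mutant step from 15 to 25 DAP, NAC55 rose by 3.01 (SE 0.51, adjusted p = 0.000576) and NAC2 by 2.73 (SE 0.55, adjusted p = 0.00232), and the NAC55 call ended in the fit to these groups alone (adjusted p = 0.0818, range 9.69e-05 to 0.0818).

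The difference of a step between genotypes, mutant minus WT, was tested as a contrast of 4 groups. For 15 to 25 DAP it was called above 0 for 21 members and below 0 for 0, against 37% and 12.8% of all genes (49.8% called); 17 and 3 were found with quantile normalization and 16 and 2 with median ratios. For 25 to 35 DAP the counts were 5 and 5 (13.2% and 20.9%, 34.1% called), and for 35 to 45 DAP 10 and 2 (11.9% and 13.2%, 25.1% called). The largest were those of MELO3C013287.2 at the first step (6.77, SE 1.34, adjusted p = 0.000423), NAC104-like at the second (4.85, SE 1.26, adjusted p = 0.00641) and MELO3C017754.2 at the third (4.84, SE 0.42, adjusted p = 2.12e-07), with MELO3C017754.2 also at the second in the other direction (-4.38, SE 0.42, adjusted p = 9.93e-07).

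Likeness to CmNAC-NOR was measured as Pearson's r over the 24 libraries on the log2(TPM + 1) scale, as a description. NAC55 was the member most like it (r = 0.908; 0.914 within WT and 0.936 within the mutant). Next came NAC72-like (0.721; -0.234 within WT, 0.799 within the mutant) and MELO3C010632.2 (0.636; -0.018 and 0.779), which resembled CmNAC-NOR over the mutant libraries and not over the WT libraries. The least like were NAC37-like (-0.675), NAC86 (-0.609) and the scarcer NAC73-like gene (-0.607). In all, 6 of the 52 members exceeded 0.5 and 5 lay under -0.5, against 3.27% and 7.42% of all genes. The median was -0.085 over the members and -0.094 over all genes. The NAC100-like gene MELO3C001996.2, chosen after its values were seen, had r = 0.901 within WT and 0.8 within the mutant but 0.555 over all 24 libraries. These points share libraries, ages and genotypes.

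**Figure D5:**
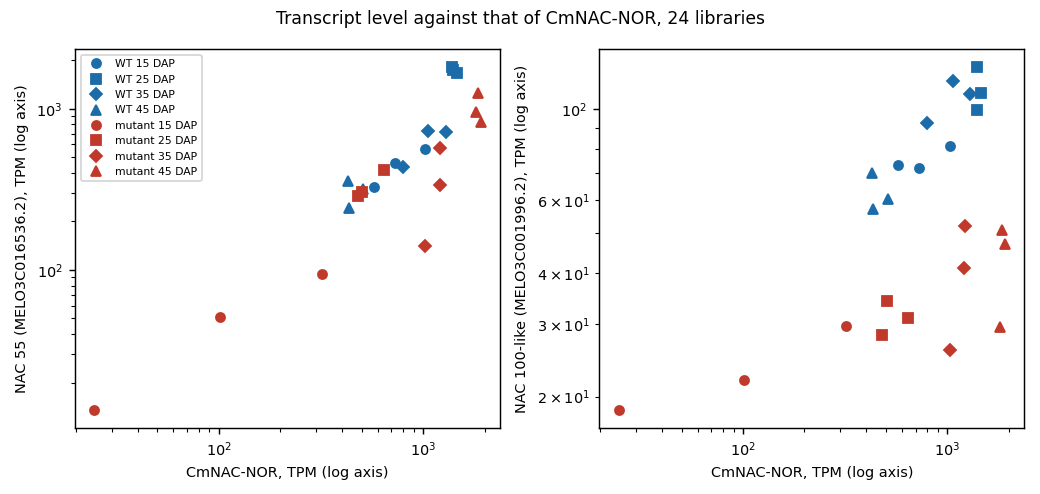
TPM of NAC55 (left) and of the NAC100-like gene MELO3C001996.2 (right) against TPM of CmNAC-NOR, all on log axes, with 1 point per library, colours for genotype and symbols for age. NAC55 has r = 0.908 with CmNAC-NOR over the 24 libraries on the log2(TPM + 1) scale, and the NAC100-like values of the mutant (at most 51.9 TPM) lie below those of WT (at least 57.2 TPM).

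Members that share a number did not always run together over the 24 libraries. The NAC7-like pair (r = 0.744), the NAC90 pair (0.664), the NAC92 pair (0.604) and the NAC104 pair (0.578) were positively related, the 2 NAC100-like genes hardly (0.058), and the NAC17-like (-0.755) and NAC73-like (-0.758) pairs ran in opposite directions. The closest pair of all members was NAC86 with the scarcer NAC73-like gene (0.956), followed by MELO3C013287.2 with MELO3C013641.2 (0.94) and NAC91-like with NAC104 (0.939).

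The 24 members that were not tested stayed low. Of these, 7 were listed at 0 in every library, a further 10 stayed under 1 TPM and 7 reached 1 TPM in 1 or 2 libraries, with 7.51 TPM as the highest value (MELO3C025611.2). Among them were NAC43 (MELO3C022254.2; at most 0.05 TPM), NAC12 (MELO3C005791.2; 1.91 TPM) and NAC76 (MELO3C019620.2; 0.88 TPM), numbered like fibre and vessel switches of Arabidopsis, and a second NAC55 gene (MELO3C016444.2; 0.6 TPM). Just inside the limit, in 3 libraries, were MELO3C000247.2 (at most 2.82 TPM) and NAC92 (1.76 TPM), and just outside, in 2 libraries, were 6 genes with maxima of 1.44 to 7.51 TPM.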

How the data were processed

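RNA of melon fruit flesh was sequenced in 24 libraries, 3 for each of 2 genotypes at 4 ages. Cufflinks, HISAT2, StringTie and TopHat2 appear in the submitters' processing notes, with no versions; what each did, which genome was used and how genes were annotated is not given in the sources used here. The values deposited by the authors were read as TPM, from their decimals and library sums, since no header or label names the unit. TPM are relative to the rest of a library and keep no read depth, so no count model was used.

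Groups came from the sample titles. Genes at 1 TPM or more in at least 3 libraries were tested with limma-trend (limma 3.58.1, R 4.3.3) on log2(TPM + 1), which understates changes of low genes, with 8 group means in 1 model of all 24 libraries without covariates. Two-sided p-values were adjusted by Benjamini-Hochberg over 17658 genes within each of 13 comparisons, and the scripts were tested on simulated data. Alternatives were pseudocounts of 0.1 and 5, no filter, a filter of 5 TPM, quantile normalization, median-ratio scaling, a fit to the groups compared, a replicate block and leaving out each library. Libraries with the same replicate number in different groups deviated with a mean r of -0.015 (84 pairs, -0.314 to 0.312). This mean showed no pairing over all groups, and pairing within an age or a genotype was not tested.

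Genes named in full had, at each age, up to 5 of the largest called changes per direction without overlap and with a mean of 10 TPM in the higher group, up to 3 for steps and step differences, the 5 highest mean levels, or the 3 highest or lowest correlations with CmNAC-NOR. Other members are named to account for the lists, after their values were seen. Members, lists and tests were chosen with earlier results of these data known. None of the identifiers matched the reference gene table at hand (0 of 29980), so no coordinates or sequences are printed.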

Additional observations from a re-analysis of the deposited data

Results flagged for a closer look

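The results here are differences of a step between genotypes, mutant minus WT on the log2(TPM + 1) scale, that passed limma's contrast over all genes. For 15 to 25 DAP they were 6.77 for MELO3C013287.2, 5.46 for MELO3C013641.2 and 4.62 for NAC90-like (MELO3C004694.2). In each of these the WT libraries fell from 12.5 TPM or more to under 2 TPM, while libraries of the 15 DAP groups were more than 10-fold apart. The call of NAC90-like ended in the fit to these groups alone (adjusted p = 0.0658, range over the alternatives 0.000664 to 0.0658).

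For 25 to 35 DAP they were 4.85 for NAC104-like (MELO3C023230.2), 1.92 for NAC72-like (MELO3C018242.2), 1.36 for NAC91-like (MELO3C014141.2), -4.38 for MELO3C017754.2, -0.93 for NAC78-like (MELO3C019845.2) and -0.55 for NAC82 (MELO3C008056.2). For 35 to 45 DAP they were 4.84 for MELO3C017754.2, 3.97 for MELO3C012873.2, 3.22 for NAC83 (MELO3C022342.2) and -0.77 for NAC8 (MELO3C022869.2). MELO3C017754.2 stands in both sets with opposite signs, through its high WT and low mutant values at 35 DAP. The 2 steps share the 35 DAP libraries.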

How the results depend on the processing

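Of 78 named gene and comparison pairs, 59 kept their call under every alternative, 19 lost it under at least 1 and 0 changed sign. Of 200 alternatives to the 13 counts of called members, 187 stayed within 1.5 times. Fitted to the groups compared alone, the count at 15 DAP went from 12 to 5, that of the WT step from 35 to 45 DAP from 7 to 4 and that of the mutant step from 15 to 25 DAP from 9 to 2; the cause was not tested.

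Leaving out each library in turn gave 6 to 16, 33 to 37, 26 to 33 and 25 to 30 called members for the genotype comparisons in order of age. It gave 33 to 38, 10 to 13 and 4 to 7 for the WT steps, 6 to 11, 6 to 8 and 12 to 20 for the mutant steps, and 16 to 25, 8 to 14 and 11 to 15 for the step differences.

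A block on the replicate number, which the labels do not say pairs these libraries, gave 12, 37, 31 and 31 called members at the 4 ages. It gave 38, 13 and 6 for the WT steps, 9, 10 and 20 for the mutant steps and 22, 10 and 12 for the step differences.

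Read depth is unknown, which limits what can be said of genes near 0 TPM. The unit and the scaling rest on the values alone.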
